A study of Mus musculus with 2 samples.

Results

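Genes of prostaglandin synthesis, reception and breakdown were followed across the vessel types of the mouse lung, 7 of the 32285 genes listed in the count matrices. They were taken by symbol from both matrices, and each symbol matched 1 row: Ptgs1, Ptgs2, Ptgis, Ptges, Ptges3, Ptger4 and Hpgd. The samples were 2 single-cell RNA sequencing (scRNASeq) libraries of lung cells from wild-type C57BL/6 mice, collected 6 h after a tail vein injection. Control mice received PBS alone, and metastatic mice received 400000 B16-F10 cells, a highly invasive melanoma line of the same mouse strain, in 100 µl. The labels give 2 mice per treatment, the study's methods give another number for this cell dose, and the mice of a treatment were pooled, so each group is 1 library. Cells positive for Pecam1 and negative for Ptprc, that is endothelial cells (ECs) without leukocytes, were sorted, and dyed melanoma cells were collected as well from the metastatic lungs.

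Prostaglandins are short-lived lipids made from arachidonic acid, which phospholipases release from membranes. Cyclooxygenases, encoded by Ptgs1 and Ptgs2, turn arachidonic acid into prostaglandin H2, and terminal synthases then make the separate prostaglandins from it: prostacyclin, a vessel dilator and inhibitor of platelets that endothelium is known for, by the product of Ptgis, and prostaglandin E2 by the products of Ptges and Ptges3. Prostaglandin E2 acts on cells through receptors such as EP4, encoded by Ptger4, and the lung is known as a main site where circulating prostaglandins are taken up and inactivated, the latter by the dehydrogenase encoded by Hpgd.

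The libraries held 85794655 (control) and 104978816 (B16-F10) unique molecular identifiers (UMIs, each a counted RNA molecule). After filters at 1000 to 5000 genes and under 20% mitochondrial UMIs per cell, and removal of called doublets, 7830 and 7767 cells remained, with medians of 7510 and 8557 UMIs. Clusters were named by their markers as general capillary (gCap-like, 4184 control and 3930 B16-F10 cells), aerocyte (aCap-like, 1447 and 967), artery-like (182 and 141), vein-like (291 and 283) and lymphatic (LEC-like, 58 and 51). A further 927 and 971 ECs stayed unnamed, and 717 and 1227 cells, 9.16% and 15.8%, fell into mixed clusters that were left out. Most markers of each name were found in its cells, with exceptions: in vein-like cells, 1 of the 8 vein markers reached only 2.06% and 2.47% of cells, in artery-like cells 1 of the 8 artery markers reached only 9.89% and 7.09%, and in LEC-like cells 1 of the 8 endothelial markers reached only 12.1% and 11.8%. The classes were not made of the same clusters in both libraries: the gCap-like cluster with most cells was led by Sox11 in the control (1624 cells), while those led by Chrm2 (1202 cells) and Lalba (1003 cells) came first in the B16-F10 library, and an aCap-like cluster led by Tmeff2 went from 534 to 65 cells. The cluster led by Lalba (73 control and 1003 B16-F10 cells) met the naming limits for 5 of the 8 gCap markers, the fewest among gCap-like clusters. At resolution 1.6 such a cluster stayed unnamed. The libraries shared 18 cell barcodes, 0.230% and 0.232% of their cells. RNA free in the suspension made up an estimated 1.40% of endothelial UMIs for the control and 1.99% for B16-F10.

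Levels are counts of UMIs of a gene per 1000000 UMIs, or CPM, in the summed cells of a class, with an exact Poisson 95% interval, and ratios are log2 of B16-F10 over control with an exact conditional 95% interval. With 1 library per group no test between the treatments exists, and these intervals cover counting error only, not the spread between mice. A gene was read as higher or lower from a 1.5-fold ratio on, among genes with at least 50 UMIs in the class over both libraries. Of 13007 such genes in gCap-like cells, 7.95% were higher and 9.39% lower in the B16-F10 library. The shares were 6.37% and 8.13% in aCap-like, 9.52% and 8.52% in artery-like, 5.4% and 5.79% in vein-like and 8.4% and 8.42% in LEC-like cells. Of the 7 genes, 5 could be read in gCap-like cells (1 higher, 3 lower), 6 in aCap-like (1 higher, 3 lower), 3 in artery-like (none higher or lower), 5 in vein-like (1 higher, 1 lower) and 2 in LEC-like cells (1 lower). That last gene is Hpgd, whose LEC-like level in the B16-F10 library is at background, so no difference is read from it. Their median log2 ratio was -0.60 in gCap-like and 0.13 in vein-like cells, where that of all genes was -0.04 and -0.03. Several of these readings lie near the limit: in gCap-like cells Ptgs1 was 1.52-fold lower, Hpgd 1.52-fold lower and Ptgis 1.53-fold higher, and of 14 other choices of cells or scaling the reading ended in 7, 10 and 3, with the sign kept in all 14.

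**Figure D1:**
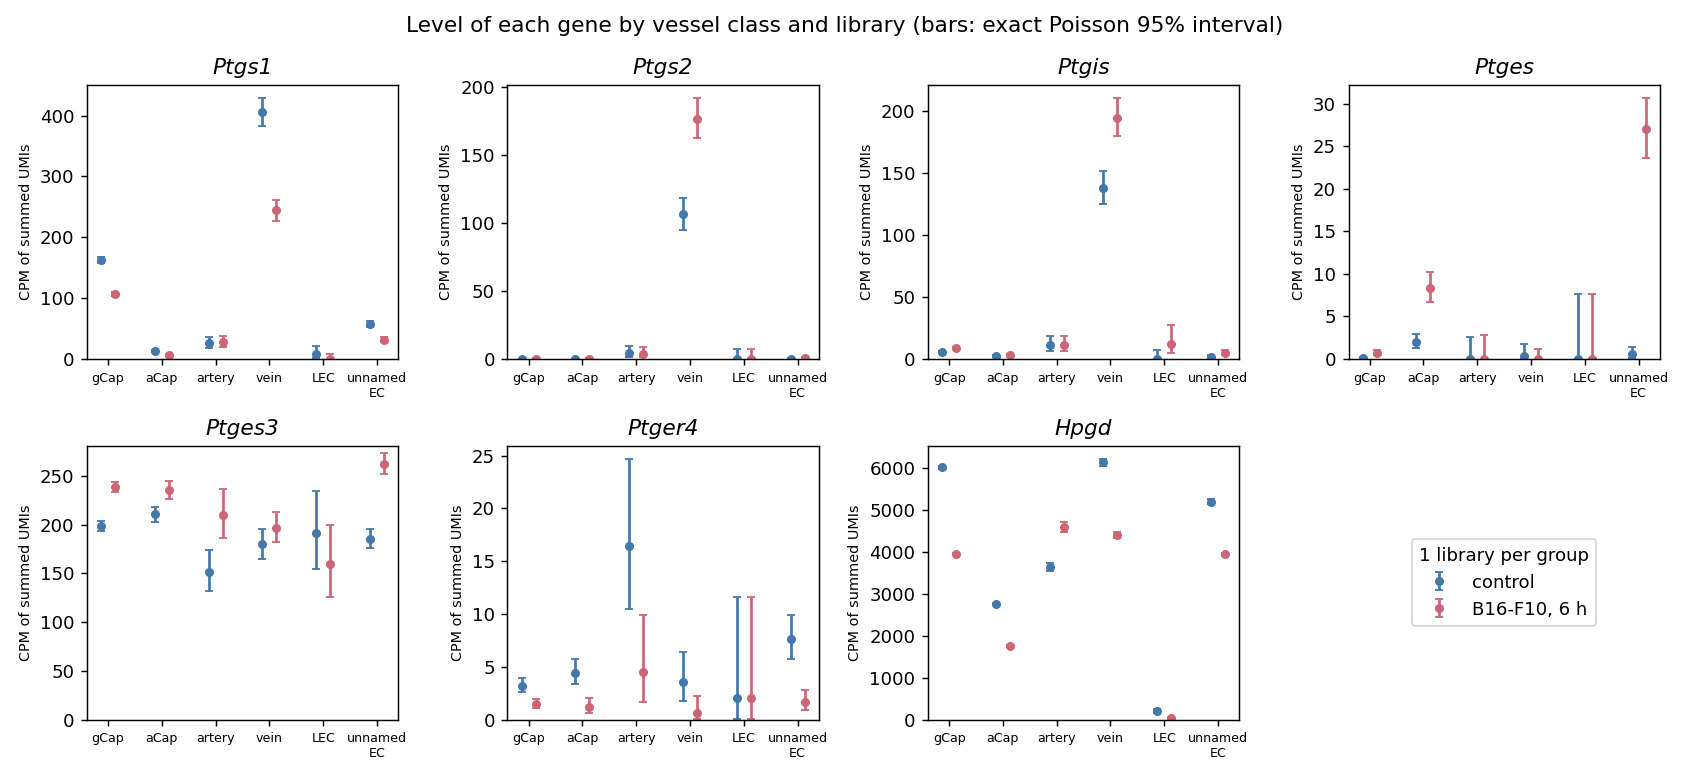
Level of the 7 genes as CPM of summed UMIs (y axes, each from 0) in 6 endothelial classes (x axis) for the control and the B16-F10 library, with exact Poisson 95% intervals. Ptgs2 and Ptgis stood above 100 CPM in vein-like cells alone, Ptgs1 was highest there in both libraries, and Ptges reached 27.0 CPM in the unnamed ECs of the B16-F10 library.

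The cyclooxygenases were not shared evenly between vessels. Ptgs1, the constitutive isozyme, and Ptgs2, the inducible isozyme, met at high level in vein-like cells, and there they lay on opposite sides: Ptgs1 was lower and Ptgs2 higher in the B16-F10 library. Their promoters are shown because the isozymes catalyse the same reaction and lay on opposite sides in the same cells. Ptgs1 (ENSMUSG00000047250) lies on chromosome 2 from 36230426 to 36252272 on the plus strand of GRCm38, and Ptgs2 (ENSMUSG00000032487) on chromosome 1 from 150100031 to 150108227 on the plus strand. The sequences are from RefSeq (GRCm38.p6), 250 bases before to 50 after the gene start, at chr2:36230176-36230475 and chr1:150099781-150100080, both on the plus strand. Capitals mark matches to any of 7 short motifs searched on both strands. The E-box was searched as CACGTG, and the core of the cAMP response element as TGACG. The motif of C/EBP factors was TTGCNNAA and that of STAT factors TTCNNNGAA. For AP-1 the letters were TGANTCA, while the TATA box was searched as TATAAA, and NF-kB by its usual ambiguous motif.
Ptgs1: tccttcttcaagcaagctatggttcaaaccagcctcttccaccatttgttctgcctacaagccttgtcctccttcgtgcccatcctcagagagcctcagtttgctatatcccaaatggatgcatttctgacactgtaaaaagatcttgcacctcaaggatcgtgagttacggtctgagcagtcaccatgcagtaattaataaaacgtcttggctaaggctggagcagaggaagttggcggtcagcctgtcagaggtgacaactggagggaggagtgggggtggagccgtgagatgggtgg
Ptgs2: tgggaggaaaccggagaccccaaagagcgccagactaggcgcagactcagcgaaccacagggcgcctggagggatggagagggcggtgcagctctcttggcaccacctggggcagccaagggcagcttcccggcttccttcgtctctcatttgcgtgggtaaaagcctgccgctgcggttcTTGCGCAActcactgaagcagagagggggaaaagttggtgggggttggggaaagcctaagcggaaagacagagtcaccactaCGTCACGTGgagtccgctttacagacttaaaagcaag
The GC box GGGCGG, in 35.7% of windows, was searched too and is not in capitals: the Ptgs2 window held 1 match and the Ptgs1 window none. The Ptgs1 window held none of the 7 others. The Ptgs2 window held TTGCNNAA at 1 place that reads on both strands, and TGACG on the minus strand overlapping CACGTG. Of 32851 promoter windows of this length, 10.8% hold TTGCNNAA, 20.8% TGACG and 7.15% CACGTG, and a match is a description of letters, not of binding. STAT, AP-1 and TATA motifs are in 8.30%, 7.81% and 13.6% of windows, and NF-kB in 8.46%.

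In vein-like cells, Ptgs1 stood at 405.7 CPM (383.4 to 428.9; 1241 UMIs) in the control and 244.2 CPM (227.4 to 262.0; 777 UMIs) in the B16-F10 library. The log2 ratio was -0.73 (-0.86 to -0.60), and the intervals of the levels did not overlap. Of vein-like cells, 93.5% and 90.1% had a Ptgs1 UMI, and with each cell thinned to 2000 UMIs the shares were 60.1% (54.3 to 65.8) and 33.6% (28.1 to 39.4). The median cell held 4 UMIs in the control and 2 in the B16-F10 library, so the lower level was spread over the class rather than held by a few cells. Free RNA would have supplied 0.351% and 0.504% of these levels. The melanoma-like cluster, a class that should lack the gene, also carried 5 macrophage markers. At resolution 1.6 its 114 B16-F10 cells were separated into 78 melanoma-like and 36 macrophage-like cells. A Ptgs1 UMI was in 0 of the 78, which allows a share of up to 3.85%, at a median of 8040 UMIs against 11171 in the vein-like cells, and in 3 of the 36.

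In gCap-like cells, the next highest class, Ptgs1 was at 162.6 CPM (5028 UMIs) in the control and 107.1 CPM (3693 UMIs) in the B16-F10 library, a log2 ratio of -0.60 (-0.66 to -0.54). Vein-like cells thus held 2.49-fold the gCap-like level in the control and 2.28-fold in the B16-F10 library, and the ratios of the treatments in the classes differed by -0.13 (-0.27 to 0.01). In aCap-like cells it was at 12.9 CPM (169 UMIs) in the control and 5.98 CPM (65 UMIs) in the B16-F10 library, a log2 ratio of -1.11 (-1.54 to -0.69). Free RNA would have supplied 11.1% and 20.6% of the aCap-like values. Artery-like cells held 25.8 CPM (36 UMIs) and 28.0 CPM (37 UMIs), a log2 ratio of 0.12 (-0.58 to 0.82) that includes 0 and ran from -0.13 to 0.68 over 11 alternatives. LEC-like cells held 4 UMIs and 0 UMIs, where a count of 0 allows up to 6.23 CPM.

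Within gCap-like cells, Ptgs1 ranged from 23.8 to 223.4 CPM between 6 clusters of the control library, although no member gene was used in clustering. The clusters led by Sox11 and Ptgs1 (number 0) and by Chrm2 and Kcnh1 (number 1) held 215.3 and 223.4 CPM in the control and 132.6 and 161.7 CPM after B16-F10 injection. The cluster led by Ntrk2, Adam23 and Sema3c (number 4), the last a ligand that guides axons and vessels, held 37.9 and 48.1 CPM, a log2 ratio of 0.35 (0.06 to 0.63). Over the 6 clusters, 4 had an interval below 0, 1 above and 1 including 0, and the ratio ran from -0.70 to 0.35. A cluster led by Lalba (number 6) had 73 control and 1003 B16-F10 cells and held 85.9 and 61.9 CPM. Without it, chosen after these values were seen, the gCap-like ratio of Ptgs1 was -0.40, and with finer clusters -0.42, both inside 1.5-fold. Among the finer clusters, the one led by Lalba (64 control and 935 B16-F10 cells) stayed unnamed. Both choices thus leave such cells out of the gCap-like class and are not separate checks.

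Ptgs2, in contrast to Ptgs1, was concentrated in vein-like cells. It stood at 106.6 CPM (95.3 to 118.8; 326 UMIs) in the control and 177.0 CPM (162.6 to 192.2; 563 UMIs) in the B16-F10 library, a log2 ratio of 0.73 (0.53 to 0.93) or 1.66-fold. The intervals of the levels did not overlap. In the other named vessel classes few UMIs were found. The gCap-like cells held 4 and 11 UMIs among 4184 and 3930 cells. There were 0 and 2 in aCap-like, 6 and 5 in artery-like, and 0 and 0 in LEC-like cells. In the control, the 4 gCap-like UMIs made 0.129 CPM, and free RNA would have supplied 55.4% of that against 0.0673% of the vein-like level.

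Within vein-like cells Ptgs2 was uneven. A UMI was found in 38.5% (32.9 to 44.3) of control and 50.9% (44.9 to 56.8) of B16-F10 cells, and in 15.1% and 22.6% at 2000 UMIs, where the intervals (11.2 to 19.8 and 17.9 to 27.9) overlap. A UMI was found in 0.0717% and 0.254% of gCap-like cells, at medians of 7232 and 8507 UMIs, and in 0 of the 78 melanoma-like cells apart from the macrophage-like ones. The vein-like shares lie above both. Of the 36 macrophage-like cells, 16.7% had a UMI. At least 10 UMIs were in 7 control and 12 B16-F10 cells, and the single highest cells held 18 and 46 UMIs. Without that highest cell of each library the ratio was 0.69 (0.49 to 0.90). Over 11 alternatives the ratio ran from 0.25 to 1.08: 0.25 with no upper limit of genes per cell, which ends the 1.5-fold difference, and 1.08 without cells that carry markers of platelets, mural cells, macrophages or melanoma. With no upper limit the vein-like class also took in a cluster led by Cenpf and Ckap2, of 6 control and 34 B16-F10 cells. Its part in that ratio was not tested.

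**Figure D2:**
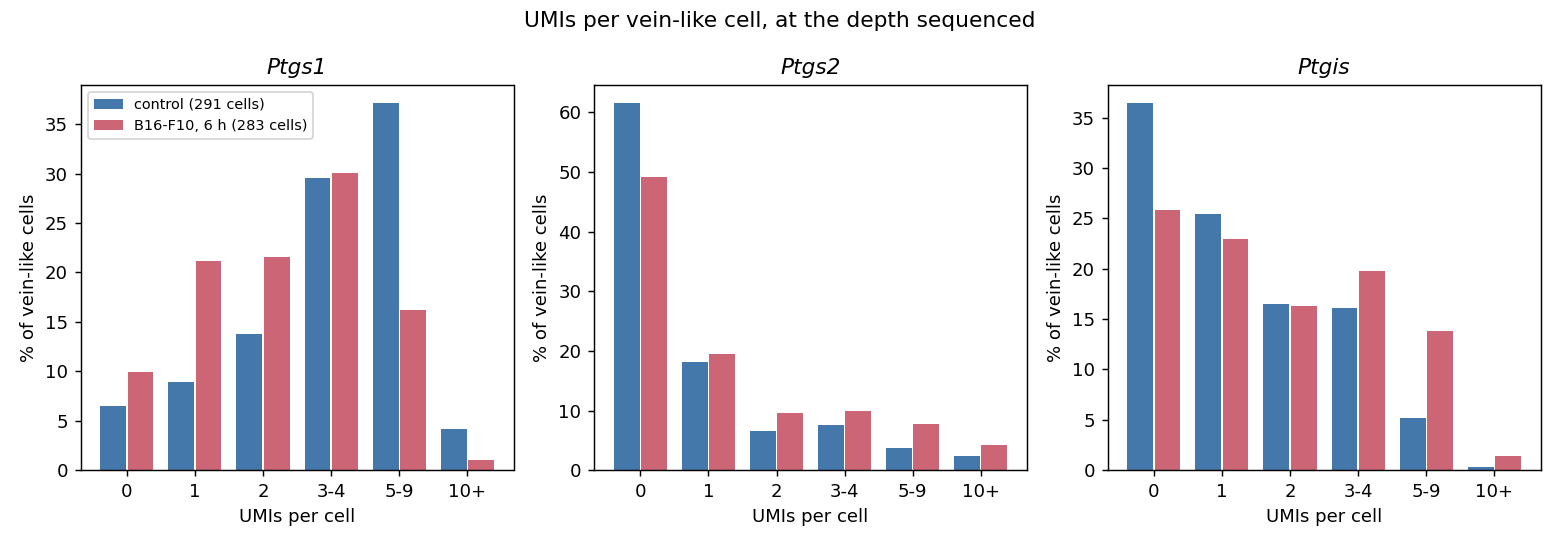
Share of vein-like cells (y axis, in percent) by the number of UMIs of Ptgs1, Ptgs2 or Ptgis in the cell (x axis), for 291 control and 283 B16-F10 cells, at the depth sequenced. Cells with 5 to 9 Ptgs1 UMIs made up 37.1% of the control and 16.3% of the B16-F10 cells, while for Ptgis such cells made up 5.15% and 13.8%.

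Markers of red cells also differed in the vein-like class, with a summed level of 518 CPM in the control and 3521 CPM in the B16-F10 library, higher for 5 of 6 markers, with 1 marker at 0 in both. Summed melanoma markers were at 14.4 and 37.4 CPM, with 6 and 1 of 8 at 0, and macrophage markers at 14.1 and 33.9 CPM. Without cells that carry markers of platelets, mural cells, macrophages or melanoma the ratio was -0.64 for Ptgs1, 1.08 for Ptgs2 and 0.62 for Ptgis. This filter took out most of the class and kept 127 control and 91 B16-F10 cells. The part of the red cell markers was not tested. Neutrophil markers summed to 1.31 and 7.23 CPM, with 4 and 2 of 6 markers at 0. Outside the endothelium, Ptgs2 was at 440.6 CPM in 3 control cells (8 UMIs) and 1002.2 CPM in 19 B16-F10 cells (136 UMIs) of the neutrophil-like cluster. In the mixed cluster with epithelial markers it was at 77.8 CPM in 25 control cells (28 UMIs) and 9.26 CPM in 51 B16-F10 cells (5 UMIs). Both clusters are small, and their levels are given for reference only.

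Ptgis encodes prostacyclin synthase (ENSMUSG00000017969, chromosome 2 from 167191805 to 167240604, minus strand, GRCm38). Among the named vessel classes it was, like Ptgs2, highest in vein-like cells. Its level there was 138.3 CPM (125.4 to 152.1; 423 UMIs) in the control and 194.9 CPM (179.8 to 210.8; 620 UMIs) in the B16-F10 library, a log2 ratio of 0.50 (0.31 to 0.68), under 1.5-fold. In 2 of 11 alternatives it passed 1.5-fold, at 0.60 thinned to 2000 UMIs and 0.62 without cells that carry markers of other types. The share of cells with a UMI went from 63.6% to 74.2%, and at 2000 UMIs from 22.7% (18.0 to 27.9) to 33.6% (28.1 to 39.4). The Ptgis and Ptgs2 ratios thus lay on the same side in vein-like cells, and the Ptgs1 ratio on the other. In the mixed cluster with mural and fibroblast markers, Ptgis was at 103.5 CPM in 64 control and 143.7 CPM in 88 B16-F10 cells. Summed mural markers in vein-like cells were at 105.3 CPM in the control and 72.0 CPM in the B16-F10 library, although 5 of 8 were higher in the latter. The part of mural RNA in the vein-like Ptgis level was not tested.

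In gCap-like cells Ptgis was at 5.82 CPM (180 UMIs) and 8.90 CPM (307 UMIs), a log2 ratio of 0.61 (0.34 to 0.89). This is the single higher gene among the 5 read there, and 1.53-fold is close to the limit. The vein-like level was 23.7-fold and 21.9-fold that of gCap-like cells in the control and B16-F10 libraries. Artery-like cells held 16 and 15 UMIs (11.5 and 11.4 CPM), aCap-like cells 28 and 33 UMIs, with a log2 ratio of 0.51 (-0.26 to 1.29) that ran from -0.33 to 0.59 over 11 alternatives, and LEC-like cells 0 and 6 UMIs. In artery-like cells, 6 of the 15 B16-F10 UMIs were in 1 cell. Among gCap-like cells Ptgis could be read in clusters 0 and 1, with log2 ratios of 0.70 (0.17 to 1.22) and 0.65 (0.24 to 1.07). The gene overlaps the antisense genes 1110018N20Rik, with 28 and 21 endothelial UMIs in all, and Gm14291, with none.

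Of the vein-like cells with a Ptgs2 UMI, 62.5% in the control and 75.0% in the B16-F10 library also had a Ptgis UMI, where cells without Ptgs2 had 64.2% and 73.4%. For Ptgs1 the shares were 94.6% and 88.9% in Ptgs2 cells and 92.7% and 91.4% in the others. The cells with Ptgs2 were somewhat deeper, with medians of 11144 and 11740 UMIs against 9132 and 10231. Inside the class, detection of Ptgs2 therefore went with little difference in detection of the other pair. Ptges, with 1 control and 0 B16-F10 UMIs in the class, was too sparse for such a comparison. Across 10 sums (5 classes in 2 libraries, which share depth and preparation) the level of Ptgis ran with that of Ptgs2 at a Pearson r of 0.91, and Ptgs1 with Ptgs2 at 0.66.

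Ptges, the inducible prostaglandin E synthase (ENSMUSG00000050737, chromosome 2 from 30889471 to 30929863, minus strand, GRCm38), was placed elsewhere. It was found in aCap-like cells, at 1.98 CPM (26 UMIs) in the control and 8.37 CPM (91 UMIs) in the B16-F10 library, a log2 ratio of 2.08 (1.44 to 2.77). Of aCap-like cells, 1.45% and 4.45% had a UMI, and at 2000 UMIs 0.280% and 1.25%. All 91 lay in the cluster led by Ccdc184, which had 913 and 902 cells and a ratio of 2.02 (1.32 to 2.78). One B16-F10 cell held 21 of the 91 UMIs, and without the highest cell of each library the ratio was 1.82 (1.13 to 2.55). Free RNA would have supplied 1.25% and 1.18% of the aCap-like levels. In vein-like cells there were 1 and 0 UMIs, in artery-like and LEC-like cells none, and in gCap-like cells 3 and 25. Vein-like cells, with both cyclooxygenases, thus held next to no Ptges.

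The highest Ptges level of the B16-F10 library was in the unnamed ECs, with 4 UMIs (0.556 CPM) in the control and 237 UMIs (27.0 CPM) in the B16-F10 library. Nearly all of it, 236 UMIs, lay in the cluster led by Sox9, a transcription factor, and Csf2, the growth factor GM-CSF, at 79.3 CPM (69.5 to 90.1). That cluster held 297 B16-F10 cells and only 6 control cells, which had 0 Ptges UMIs, so no level of the control can be set beside it. The UMIs were concentrated: 7 unnamed ECs of the B16-F10 library held at least 10, and 10 cells held 49.4% of them. The same cluster held Ptgs1 at 6.38 CPM, Ptgis at 4.37 CPM, and Hpgd at 177.4 CPM, and it had no Ptgs2 UMI.

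Ptges3 encodes a prostaglandin E synthase that is also p23, a co-chaperone of Hsp90 (ENSMUSG00000071072, chromosome 10 from 128058954 to 128077272, plus strand, GRCm38). It was the even member, between 151.7 and 210.4 CPM in the 5 control classes and between 160.0 and 238.3 CPM in the B16-F10 classes. In gCap-like cells it was at 198.6 CPM (6141 UMIs) and 238.3 CPM (8219 UMIs), a log2 ratio of 0.26 (0.21 to 0.31). The ratio was 0.16 (0.08 to 0.24) in aCap-like, 0.47 (0.20 to 0.73) in artery-like, 0.13 (-0.04 to 0.30) in vein-like and -0.26 (-0.71 to 0.19) in LEC-like cells. Within both aCap-like clusters the interval included 0, with ratios of -0.01 (-0.10 to 0.07) in the one led by Ccdc184 and 0.10 (-0.42 to 0.58) in the one led by Tmeff2, which was at 116.8 CPM in the control and went from 534 to 65 cells. None of the class ratios reached 1.5-fold, and in vein-like and LEC-like cells the interval includes 0.

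In the 6 gCap-like clusters Ptges3 lay between 0.08 and 0.49 on the log2 scale, with 3 intervals above 0 and 3 including it. In the cluster led by Lalba it was at 264.8 and 316.0 CPM, and in the B16-F10 cells of the cluster led by Sox9 and Csf2 at 355.8 CPM. Without the cluster led by Lalba the gCap-like ratio was 0.08, and with finer clusters, which also leave such a cluster outside the class, 0.10. A processed pseudogene, Ptges3-ps, is annotated in GENCODE M21 and was not analysed here, and whether reads from it were given to Ptges3 was not tested.

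Ptger4, the EP4 receptor gene (ENSMUSG00000039942, chromosome 15 from 5206661 to 5244187, minus strand, GRCm38), was sparse in every vessel class and lower in the B16-F10 library wherever it could be read. In gCap-like cells it was at 3.24 CPM (100 UMIs) and 1.48 CPM (51 UMIs), a log2 ratio of -1.13 (-1.65 to -0.63). In aCap-like cells it was at 4.42 CPM (58 UMIs) and 1.20 CPM (13 UMIs), a log2 ratio of -1.89 with an interval below 0. Of the 58 control UMIs, 24 lay in the cluster led by Tmeff2, which went from 534 to 65 cells. The cluster led by Ccdc184, with 913 and 902 cells, held 34 and 13 UMIs. Its ratio was -1.48 (-2.53 to -0.52), on fewer than 50 UMIs. The highest named class of Ptger4 was artery-like, with 16.5 CPM (10.4 to 24.7; 23 UMIs) in the control and 4.55 CPM (1.67 to 9.89; 6 UMIs) in the B16-F10 library, too few UMIs for a reading.

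Over all ECs, 248 and 88 Ptger4 UMIs gave a log2 ratio of -1.57 (-1.94 to -1.21). Among the unnamed ECs, the cluster led by Fabp4, a fatty acid carrier, and Rbp7 held 35 of the 55 control UMIs at 36.0 CPM, and 2 UMIs among its 30 B16-F10 cells. That cluster went from 172 to 30 cells, so its share of the sum changed together with the level. With each cell thinned to 2000 UMIs the gCap-like ratio was -0.36, within 1.5-fold, with a UMI left in 0.558% and 0.410% of cells. Ptger4 overlaps Ttc33 on the other strand, which had 1840 and 1581 endothelial UMIs. Whether the counting kept strands apart is not given in the sources used here, so an exchange of reads between both genes was not tested.

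Hpgd encodes the dehydrogenase that starts prostaglandin breakdown (ENSMUSG00000031613, chromosome 8 from 56294585 to 56321043, plus strand, GRCm38). Its promoter is shown because Hpgd was above 1000 CPM in all 4 blood vessel classes and its ratio changed sign between them. The RefSeq window is at chr8:56294302-56294601 (GRCm38.p6), plus strand, and the capitals mark its single match among the 7 motifs, TATAAA.
Hpgd: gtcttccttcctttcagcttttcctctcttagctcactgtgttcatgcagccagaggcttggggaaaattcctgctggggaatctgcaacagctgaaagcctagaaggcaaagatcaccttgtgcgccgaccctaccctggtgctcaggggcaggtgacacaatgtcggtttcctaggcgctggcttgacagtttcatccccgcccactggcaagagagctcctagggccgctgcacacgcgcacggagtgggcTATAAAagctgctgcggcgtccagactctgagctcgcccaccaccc
The annotated gene starts downstream of the RefSeq start used for this window, and TATAAA, in 13.6% of windows, stands just after the latter. The window also held 1 GC box on the minus strand.

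In gCap-like cells Hpgd was at 6005 CPM (185642 UMIs) in the control and 3955 CPM (136418 UMIs) in the B16-F10 library, a log2 ratio of -0.60 (-0.61 to -0.59). Vein-like cells held 6123 and 4393 CPM, a log2 ratio of -0.48 (-0.51 to -0.45), and aCap-like cells 2751 and 1758 CPM, a log2 ratio of -0.65. Over 11 alternatives the vein-like ratio ran from -0.56 to -0.26, the latter without cells that carry markers of other types. The aCap-like reading ended with cells thinned to 2000 UMIs (-0.47) and without cells that carry markers of other types (-0.58), which left 740 and 326 cells. Within the aCap-like clusters the ratio was -0.84 (-0.87 to -0.81) in the one led by Ccdc184 and -0.71 (-0.89 to -0.53) in the one led by Tmeff2. Artery-like cells went the other way, from 3639 CPM (5084 UMIs) to 4587 CPM (6054 UMIs), a log2 ratio of 0.33 (0.28 to 0.39). In the control the artery-like level was 1.65-fold below the gCap-like level, and in the B16-F10 library it was 1.16-fold above it. The difference between the log2 ratios of these classes was 0.94 (0.88 to 0.99). This interval covers counting error only, and over 11 alternatives the artery-like ratio stayed between 0.23 and 0.42, under 1.5-fold. In artery-like cells the summed platelet markers were at 9.31 and 41.7 CPM, higher for 8 of 8, and red cell markers at 729.4 and 1029 CPM. Without cells that carry markers of platelets, mural cells, macrophages or melanoma, 131 and 60 artery-like cells were left and the ratio was 0.39.

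Nearly every gCap-like cell held Hpgd, 99.2% and 97.1% as sequenced and 98.4% and 91.6% at 2000 UMIs, and the shares differed less than the levels. Of the 78 melanoma-like cells, 23.1% had an Hpgd UMI, and of the 36 macrophage-like cells 61.1%. The ratio depended on the clusters: 5 of 6 gCap-like clusters had intervals below 0 and 1, number 7, above, and the ratio ran from -1.19 to 0.17. The cluster led by Lalba had the lowest level in the B16-F10 library, 1639 CPM, against 4942 CPM in cluster 0 and 5499 CPM in cluster 4. Without that cluster the gCap-like ratio was -0.33, and with finer clusters, which also leave such a cluster outside the class, -0.28, both inside 1.5-fold. In gCap-like cells the summed melanoma markers were at 25.9 and 55.1 CPM and mural markers at 24.4 and 39.9 CPM, each higher for 7 of 8. Without cells that carry markers of platelets, mural cells, macrophages or melanoma the gCap-like ratio was -0.63 for Hpgd and -0.69 for Ptgs1. That filter kept 2532 control and 1465 B16-F10 cells. The unnamed cluster with gCap and arterial genes (number 3) held 6021 and 6046 CPM, a log2 ratio of 0.01 (-0.02 to 0.03).

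**Figure D3:**
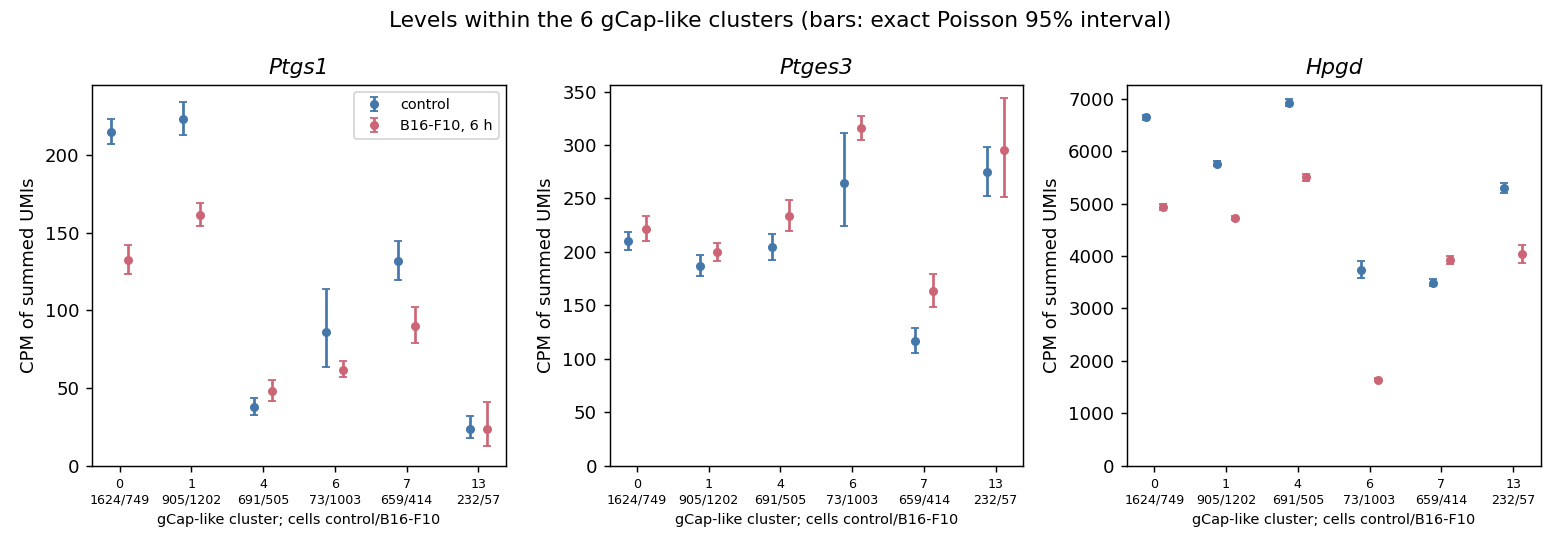
Levels of Ptgs1, Ptges3 and Hpgd (y axes, CPM of summed UMIs, from 0) in the 6 gCap-like clusters (x axis, with the number of control and B16-F10 cells), with exact Poisson 95% intervals. Hpgd in cluster 6, led by Lalba, was at 3740 CPM in 73 control cells and 1639 CPM in 1003 B16-F10 cells, while cluster 7 held 3489 and 3919 CPM.

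LEC-like cells held little Hpgd, 201.7 CPM (97 UMIs) in the control and 39.5 CPM (19 UMIs) in the B16-F10 library, a log2 ratio of -2.35 (-3.15 to -1.63). One control cell held 75 of the 97 UMIs. Without the highest cell of each library, 22 and 16 UMIs remained, and the ratio was -0.48 (-1.51 to 0.51). At under 10% mitochondrial UMIs it was -0.23, with called doublets kept 1.32, and without cells that carry markers of other types 1.00. The last of these rests on 22 control and 12 B16-F10 cells. Free RNA would have supplied 23.3% of the control and 112.0% of the B16-F10 level, so the B16-F10 value is at background and no difference is read in these cells.

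The gCap-like cells were ranked by 44 of 50 marker genes of the reactive capillary (rCap) cells named in the study, none of them a member, summed in each cell at 2000 UMIs. Cells above 34 UMIs, the 95th percentile of the control, numbered 204 of 4123 control and 2203 of 3901 B16-F10 cells. The genes were chosen by the study on data that include these samples, so the number of such cells is not independent evidence. Within the B16-F10 library, cells above this limit had less Hpgd, 2981 against 5239 CPM, a log2 ratio of -0.81 (-0.83 to -0.80), and less Ptgs1, 89.7 against 129.9 CPM, a ratio of -0.53 (-0.63 to -0.44). They had more Ptges3, 266.4 against 201.6 CPM, a ratio of 0.40 (0.34 to 0.47), and less Ptgis, 7.41 against 10.9 CPM, a ratio of -0.55 (-0.89 to -0.22). In the control the ratios for Hpgd, Ptgs1 and Ptges3 were on the same sides, at -0.21, -0.36 and 0.25. The score cuts a range and is no cell type, and cells near the limit may fall on either side.

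Among cells up to the limit, the B16-F10 library still differed from the control in some members. There the log2 ratios between libraries were -0.34 (-0.42 to -0.27) for Ptgs1, -0.21 (-0.22 to -0.20) for Hpgd and 0.86 (0.54 to 1.18) for Ptgis. For Ptges3 the ratio was 0.03 (-0.03 to 0.10), which includes 0. The Ptgis ratio was thus not smaller in these cells than in all gCap-like cells, where it was 0.61.

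**Figure D4:**
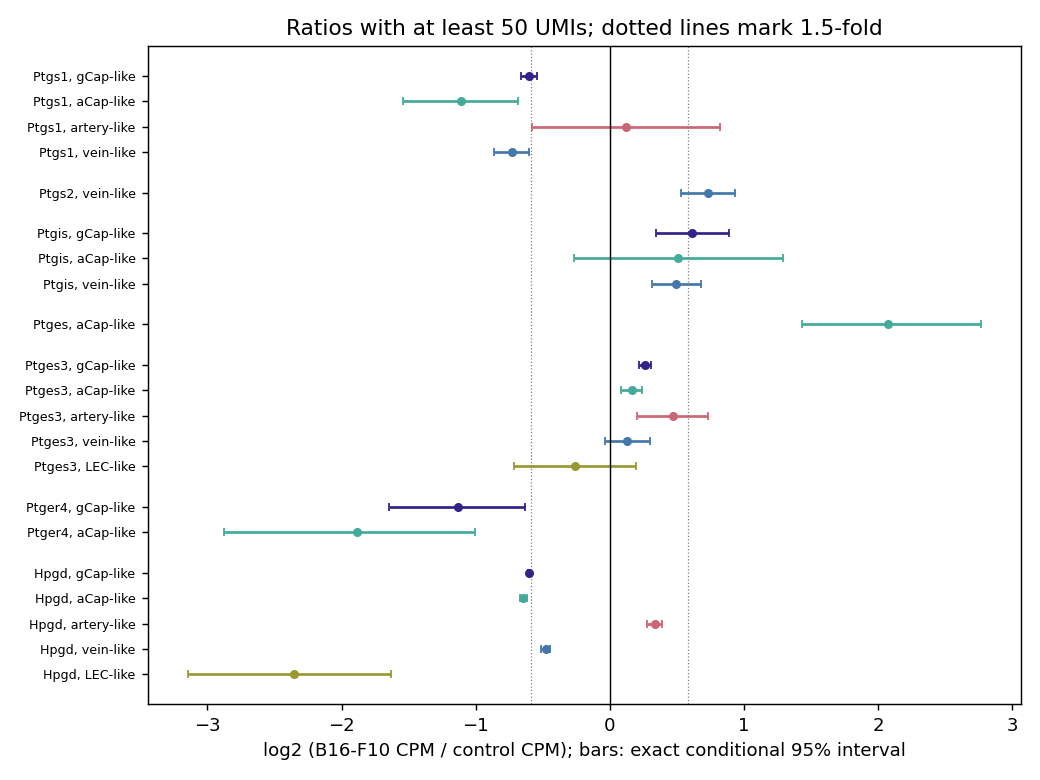
Log2 ratio of B16-F10 over control (x axis) for each gene and vessel class with at least 50 UMIs (y axis), with exact conditional 95% intervals that cover counting error only. Dotted lines mark 1.5-fold, and Hpgd lay above 0 in artery-like cells at 0.33 and below 0 in the other classes, with 1 control cell behind most of the LEC-like value.

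The rest of the prostanoid pathway was described from 30 further genes, of which 29 were in the files and 17 could be read in gCap-like cells. Of these 17, 3 were higher, none was lower, and 14 lay within 1.5-fold. Of all genes read in gCap-like cells, 7.95% were higher and 9.39% lower. The 3 include Ptgds, whose level is mostly at background. The median log2 ratio of the 17 was 0.16 against -0.04 for all genes. At 10 UMIs the list held 21 genes and its median was 0.10. In aCap-like cells 4 of 15 were higher and 2 lower, where 6.37% and 8.13% of all genes were. In artery-like cells 2 of 8 were higher and 1 lower, where 9.52% and 8.52% of all genes were. In vein-like cells 1 of 10 was higher and 1 lower, against 5.4% and 5.79% of all genes. In LEC-like cells the single gene read was neither. The list adds the steps before and after the members: release of arachidonic acid, the other synthases and receptors, and transport.

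Among transport genes, Abcc4, which encodes an exporter that carries prostaglandins among other molecules, was at 8.96 and 15.7 CPM (277 and 542 UMIs) in gCap-like cells, a log2 ratio of 0.81 (0.60 to 1.02), and higher too in aCap-like (0.70) and vein-like cells (0.73). Slco2a1, encoding the carrier that takes prostaglandins up into cells for breakdown, was at 1327 and 1597 CPM in gCap-like cells, a log2 ratio of 0.27 (0.25 to 0.29). Its ratio was 0.46 in vein-like cells (815.3 and 1124 CPM), 0.52 in artery-like cells (494.6 and 709.9 CPM) and -0.18 in aCap-like cells. The uptake carrier and the breakdown enzyme Hpgd lay on opposite sides of 0 in gCap-like and vein-like cells.

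Among receptors, Tbxa2r, for thromboxane A2, a lipid that tightens vessels, was at 43.4 and 74.4 CPM in aCap-like cells, a log2 ratio of 0.78 (0.62 to 0.94), and at 0.16 (-0.09 to 0.41) in gCap-like cells. Ptger1, for prostaglandin E2, was at 3.59 and 3.39 CPM in gCap-like cells. Ptgfrn, whose product is a negative regulator of the prostaglandin F2α receptor, was at 301.8 and 270.0 CPM, a ratio of -0.16. The thromboxane synthase gene Tbxas1 was at 8.05 and 6.23 CPM, a ratio of -0.37 (-0.64 to -0.10), and Ptges2, the third prostaglandin E synthase, at 8.77 and 11.1 CPM, a ratio of 0.34 (0.11 to 0.57).

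Ptgds, a prostaglandin D synthase gene that led the melanoma-like cluster, had 0 UMIs in control gCap-like cells and 197 in the B16-F10 library, at least 58.9-fold higher when 3 UMIs stand for the control. Free RNA would have supplied 80.2% of that level, 93.9% of the aCap-like and 97.1% of the vein-like level, so most of it is at background. The third higher gene, Akr1b8, was at 1.52 and 2.84 CPM (47 and 98 UMIs). For release of arachidonic acid, Pla2g4a was chosen after its values were seen, since it had under 50 UMIs in gCap-like cells. It was at 147.4 and 157.5 CPM in vein-like cells, a log2 ratio of 0.10 (-0.09 to 0.28), and at 36.5 and 15.9 CPM in artery-like cells (51 and 21 UMIs). Pla2g12a and Pla2g6, the phospholipases read in gCap-like cells, lay at 0.10 and 0.28 with intervals that include 0.

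**Figure D5:**
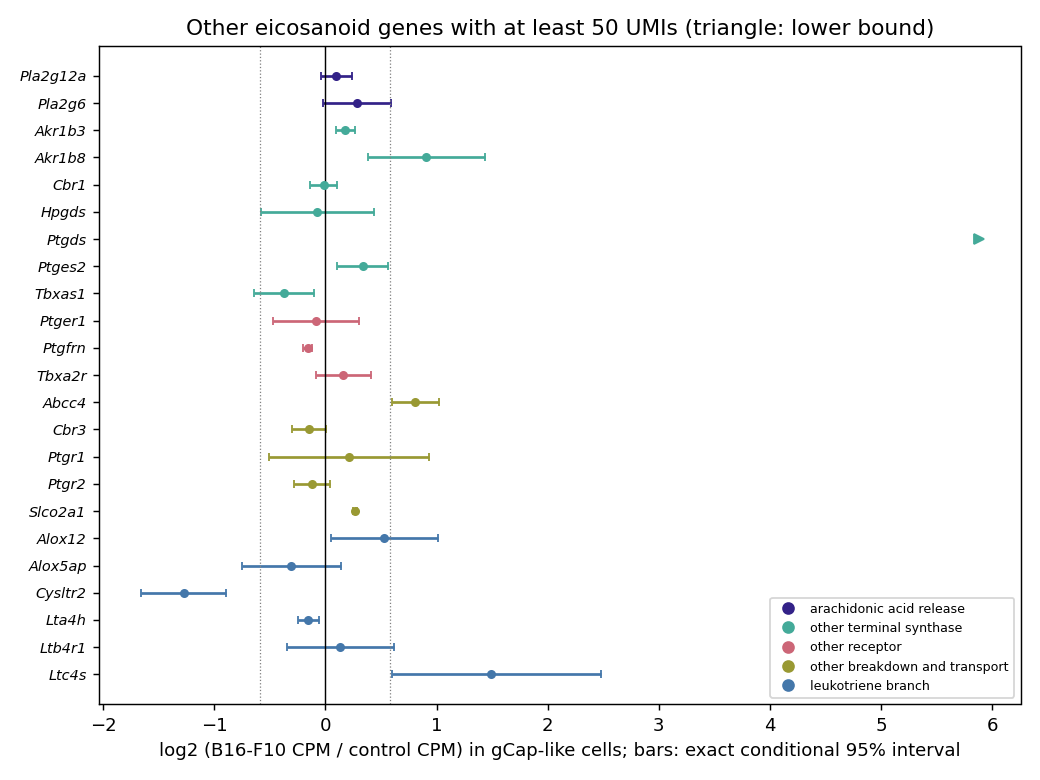
Log2 ratio of B16-F10 over control (x axis) in gCap-like cells for the 23 other prostanoid and leukotriene genes with at least 50 UMIs (y axis), coloured by role, with exact conditional 95% intervals. Most lay inside the dotted 1.5-fold lines. Abcc4 at 0.81 and Cysltr2 at -1.27 lay outside, as did Ltc4s and Akr1b8 on the higher side, and the triangle is the lower bound for Ptgds.

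The leukotriene branch starts from the same fatty acid, and 6 of its 10 genes could be read in gCap-like cells. Of these, 1 was higher and 1 lower, beside 7.95% and 9.39% of all genes, and the median was -0.01. Cysltr2, a receptor for cysteinyl leukotrienes, was at 6.02 and 2.49 CPM (186 and 86 UMIs), a ratio of -1.27 (-1.66 to -0.89). Ltc4s, leukotriene C4 synthase, was at 0.453 and 1.28 CPM (14 and 44 UMIs), a ratio of 1.49 (0.60 to 2.48). Free RNA would have supplied 36.6% of its control level and 17.7% of its B16-F10 level. At 10 UMIs the list held 8 genes and its median was 0.33, so the sign of this median rests on which genes are read.

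The genes most like each member were taken by Pearson r of log2(CPM + 1) over the same 10 sums, among 10180 genes with at least 500 UMIs. For Ptgs2 they were Tmem45a (0.98), Bst1 (0.98) and Lpcat2 (0.96), and for Ptgis Bst1 (0.96), Bace2 (0.94) and Kirrel3 (0.94). Bst1 was among the markers used to name vein-like cells. For Hpgd they were Flt1 (0.99), a VEGF receptor gene, Cav1 (0.98) and Id3 (0.98), for Ptgs1 Ro60 (0.99), Kdsr (0.95) and Tle1 (0.95), and for Ptges3 Cdc42se1, Mrpl32 and Pno1 (0.95, 0.95 and 0.94). Ptges and Ptger4, with 146 and 266 UMIs over the sums, were too sparse for such a comparison.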

How the data were processed

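Lung cells of 1 control and 1 B16-F10 library were analysed. Per the submitters' processing notes the authors used Cell Ranger 7.2.0, Seurat 4.4.0 and the mm10 build. The deposited matrices hold raw UMI counts per gene and barcode, whole numbers with no normalization by the authors, for 1597090 and 1779952 barcodes. Whether introns were counted is not given in the sources used here.

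Cells were kept with 1000 to 5000 genes and under 20% mitochondrial UMIs, doublets were called with scrublet (564 and 554 removed), and 15597 cells were clustered together with scanpy 1.11.5 and leidenalg 0.10.2 (2947 variable genes, 30 components, 20 neighbours, resolution 0.8), leaving the members and the reactive capillary, interferon and prostanoid lists out. Library preparation and treatment cannot be told apart. Naming took at least 3 markers and 50% of a list, each in at least 10% of cells and 1.5-fold over what the remaining clusters averaged. An endothelial cluster needed 6 of 8 endothelial markers. A cluster could also stay unnamed through its 10 leading genes, as cluster 3 did with 7 gCap markers. With its cells added, the gCap-like log2 ratios were -0.56 for Ptgs1 and -0.50 for Hpgd, both inside 1.5-fold. UMIs were then summed per class and library, with exact Poisson intervals for levels, exact conditional binomial intervals for ratios, and Clopper-Pearson intervals for shares. For ratios, a sum of 0 was read against a floor of 3 counts. Free RNA was taken from barcodes with 1 to 100 UMIs, and its share from Sftpc, Sftpb and Scgb1a1. The functions were tested on simulated counts.

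Of 32285 gene IDs, 32158 were found in GENCODE M21, and 6 of the 7 members had a RefSeq promoter. The text names all members, further genes from 50 UMIs on in gCap-like cells, and 3 like genes for each member except Ptges and Ptger4. Pla2g4a, with fewer UMIs there, was chosen after its values were seen. Members and lists were chosen with earlier results of these data known. Alternatives were other gene and mitochondrial limits, doublets kept, resolution 1.6, lists kept, clusters of few UMIs left out, thinning, subtraction of free RNA, centring, cells with other markers left out and all ECs summed. With 1 library per group, no replicate could be left out and no test was made.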

Additional observations from a re-analysis of the deposited data

Results flagged for a closer look

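Hpgd differed in direction between vessel classes under the same contrast: its log2 ratio of B16-F10 over control was 0.33 in artery-like cells, and -0.60 in gCap-like, -0.65 in aCap-like and -0.48 in vein-like cells. The difference was not tested, as each group is 1 library. The lowest ratio, -2.35 in LEC-like cells, is not read as a direction, since the B16-F10 level there is at background. It rests on 1 control cell with 75 of 97 UMIs and was -0.48 (-1.51 to 0.51) without the highest cell of each library. The artery-like value was as large without such cells, at 0.33 (0.28 to 0.39).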

How the results depend on the processing

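Over 46 results and 270 alternatives, 208 values stayed within the counting interval of the reported value, 60 moved beyond it and 2 readings past 1.5-fold reversed, both for Hpgd in LEC-like cells: 1.32 with doublets kept and 1.00 without cells with other markers. The moved values include shares of cells with a UMI at 4000 instead of 2000 UMIs, which are set to rise with depth. For Ptgs1 in control gCap-like cells this share went from 23.6% to 37.5%. For the 5 gCap-like ratios, 50 of 70 stayed, 20 moved and none reversed. Ptgs1 was -0.42 at resolution 1.6, -0.67 with the lists kept in clustering, -0.67 thinned to 2000 UMIs, -0.69 without cells with other markers and -0.40 without the cluster led by Lalba. Ptges3 was 0.10 at resolution 1.6 and 0.084 without that cluster, and Ptger4 was -0.36 thinned. Hpgd was -0.56 at 500 genes, -0.54 with no upper limit, -0.55 at 10% mitochondrial UMIs, -0.65 with doublets kept, -0.28 at resolution 1.6, -0.56 with the lists kept, -0.58 thinned, -0.63 without cells with other markers, -0.50 over all ECs, -0.50 with the unnamed arterial-marked capillary cells added, -0.33 without the cluster led by Lalba and -0.56 centred on the median ratio. With a minimum of 10 UMIs the pathway median was 0.10 and the leukotriene median 0.33. At resolution 1.6 the cluster led by Lalba was unnamed, so that setting also leaves such cells out of the gCap-like class. The cause of the shifts other than those of the shares was not tested. Leaving out the cluster led by Lalba, adding the arterial-marked cells leaving out the cell with most UMIs and separating melanoma-like from macrophage-like cells were chosen after seeing the data. The subtraction of free RNA changed no gCap-like reading. Leaving out clusters of few UMIs could give no other value and is not counted, since the single such cluster was mixed and in no class. No paired analysis was possible because there was 1 library per treatment. Depth limits Ptges, Ptger4 and all LEC-like values, which rest on few UMIs.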
